A study of Arabidopsis thaliana with 6 samples.

Results

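A total of 44 genes stood higher in every stem of Arabidopsis plants overexpressing Bnt07G011994 than in every wild-type (WT) stem. They were chosen from the measured values: the lowest of the 3 overexpressor libraries had to be at least 1 FPKM and at least 1.5 times the highest of the 3 WT libraries. FPKM is fragments per kilobase of exon scaled to the fragments assigned to genes in the library. The 44 genes were 0.18% of the 24434 genes measured, and the same rule turned round, for genes lower in every overexpressor stem, found 25 genes, or 0.102%. Since the values chose the genes, their levels and folds are a description, with no test. ASN1, the asparagine synthetase that dark and sugar shortage switch on, and IDL5, a peptide gene related to the abscission signal IDA, had the widest gaps between the groups. LTI78 and ANNAT1, a cold-responsive gene and an annexin, had the highest levels.

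The study measured RNA from stems of Arabidopsis thaliana, ecotype Columbia, in plants overexpressing Bnt07G011994 and in WT plants, 3 of each, grown at 22 °C under 15 h days and 9 h nights and sampled at a stem length of about 10 cm. Each sample held the stems of 1 plant. The labels used here do not say which promoter drove the transgene, whether the 3 overexpressor plants came from 1 line, which species the gene is from, or at what hour the stems were cut. The transgene itself was not analysed here, because every identifier of the table is an Arabidopsis locus.

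Depth was even, with 44597288 to 45642240 reads on genes per library, and a single read in 1 kb of exon sequence weighed 0.0219 to 0.0224 FPKM. The marker genes of stem fibres and vessels (8 measured) summed to 733 to 1089.7 FPKM in the overexpressor and 169 to 932 FPKM in WT, with WT replicate 1 lowest in all 8. Of root hair markers, COBL9 was listed at 0 in the overexpressor and at under 0.01 FPKM in WT. The seed markers CRU3, CRA1 and OLEO1 reached 0.281, 1.0025 and 0.412 FPKM in overexpressor replicate 1 and were at 0 in overexpressor replicates 2 and 3. In WT, CRA1 had 0.012 FPKM in replicate 1 and OLEO1 0.0245 FPKM in replicate 3, and their other WT values and those of CRU3 were 0. WT replicate 1 stood apart: it was the highest WT library in 8530 of 16870 tested genes, the lowest in 7116 and between the others in 1224, so results are also given without it. In bulk stems, fewer cells of a type and less RNA per cell cannot be told apart, and the part that tissue make-up had in the differences was not tested.

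Arabidopsis stems draw on stored nitrogen and sugar, extend their walls, and seal themselves with cutin and wax. Asparagine is the main form in which a plant short of sugar moves nitrogen, which is why its synthetase ASN1 is read as a marker of sugar status. Many COR (cold-regulated) genes carry the CRT/DRE element, bound by the CBF factors, and the G-box, bound by bHLH and bZIP factors. Others carry the evening element, through which the circadian clock gates transcription.

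The promoters of 6 members show where those letters sit. They were picked after their values were seen, as the 5 carriers of such letters with the highest overexpressor mean, and ASN1, the gene with the widest gap. Each is the 250 bases before the start of the RefSeq gene in TAIR10.1, printed 5′ to 3′ on the strand of the gene, with the G-box (CACGTG), the CRT/DRE core (CCGAC, or GTCGG where it lies on the other strand) and the evening element (AAAATATCT) in capitals.
ASN1 (chr3:17441432-17441681, minus strand): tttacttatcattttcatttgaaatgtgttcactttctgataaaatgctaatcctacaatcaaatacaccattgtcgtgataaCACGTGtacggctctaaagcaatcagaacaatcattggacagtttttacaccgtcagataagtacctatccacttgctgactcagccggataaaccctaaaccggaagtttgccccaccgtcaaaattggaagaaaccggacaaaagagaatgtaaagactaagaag
ANNAT1 (chr1:13224918-13225167, plus strand): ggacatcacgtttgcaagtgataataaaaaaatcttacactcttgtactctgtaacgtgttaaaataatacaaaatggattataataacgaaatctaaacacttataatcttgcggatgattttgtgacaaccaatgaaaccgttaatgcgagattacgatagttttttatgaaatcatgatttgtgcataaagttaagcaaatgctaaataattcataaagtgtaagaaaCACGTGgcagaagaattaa
LTI78 (chr5:21240467-21240716, plus strand): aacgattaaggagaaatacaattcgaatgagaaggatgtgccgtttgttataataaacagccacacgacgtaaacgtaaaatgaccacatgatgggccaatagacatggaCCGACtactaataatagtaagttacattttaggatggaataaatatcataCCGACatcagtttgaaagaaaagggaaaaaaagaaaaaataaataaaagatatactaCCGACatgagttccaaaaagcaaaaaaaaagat
COR15A (chr2:17712331-17712580, minus strand): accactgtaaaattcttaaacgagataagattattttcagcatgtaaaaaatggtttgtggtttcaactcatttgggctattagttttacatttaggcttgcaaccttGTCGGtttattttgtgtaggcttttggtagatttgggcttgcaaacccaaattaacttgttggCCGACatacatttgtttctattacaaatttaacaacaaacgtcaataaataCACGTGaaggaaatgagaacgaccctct
AT4G30650 (chr4:14953954-14954203, plus strand): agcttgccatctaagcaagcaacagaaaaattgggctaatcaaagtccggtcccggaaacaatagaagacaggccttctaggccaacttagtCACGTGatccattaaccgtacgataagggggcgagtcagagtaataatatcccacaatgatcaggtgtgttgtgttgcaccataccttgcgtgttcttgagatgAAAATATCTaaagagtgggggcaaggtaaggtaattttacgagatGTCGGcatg
COR413IM1 (chr1:10289667-10289916, minus strand): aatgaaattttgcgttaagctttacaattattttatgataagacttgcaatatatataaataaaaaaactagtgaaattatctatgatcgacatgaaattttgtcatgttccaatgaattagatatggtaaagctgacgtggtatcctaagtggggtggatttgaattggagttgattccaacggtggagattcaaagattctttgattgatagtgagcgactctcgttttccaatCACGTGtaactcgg
LTI78 had 3 copies of the CRT/DRE core, at 140 to 136, 90 to 86 and 33 to 29 bases before the start. COR15A had 2 copies, 1 on each strand, and a G-box at 28 to 23 bases before the start. In ASN1 the G-box lay at 167 to 162 bases, in ANNAT1 at 19 to 14 bases and in COR413IM1 at 14 to 9 bases. AT4G30650 was the gene of the 6 that held all 3 motifs.

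Over the 44 genes, 9 motifs were searched on both strands in windows reaching from 250 bases before to 50 bases after the start. The G-box stood in 8 of the 44 windows, or 18.18%, against 8.21% of all 24434 windows. Its carriers were ASN1, ANNAT1, LHCB2.3, COR15A, COR413IM1, AT4G30650, AT2G26515 and AT5G49120. The evening element stood in 3 windows (6.82%, against 2.89% of all windows): AT4G30650, AT3G13175 and GATL2. The CRT/DRE core, with 8 windows or 18.18%, was near the 15.4% of all genes, and the CCA1-binding site AAAAATCT was in 5 (11.4%, against 7.92%). Below the share of all windows were the W-box core TTGAC with 43.2% against 50.6%, the TCP site II TGGGCC with 11.4% against 16.8%, and the heat shock half-sites GAANNTTC with 2.27% against 11.4%. The I-box core GATAAG (15.9% against 15.0%) and the TATA box TATAAA (50% against 51.1%) were near it. G-box and heat shock letters read the same on both strands, and no motif of the search contains another. For each of the 9 motifs the exact binomial 95% interval of the members' share covered the share of all windows. For the G-box it ran from 8.19% to 32.7%, and for the heat shock half-sites from 0.058% to 12.02%. No excess or lack of a motif is therefore read from these shares. A match describes letters, not a bound site.

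**Figure D1:**
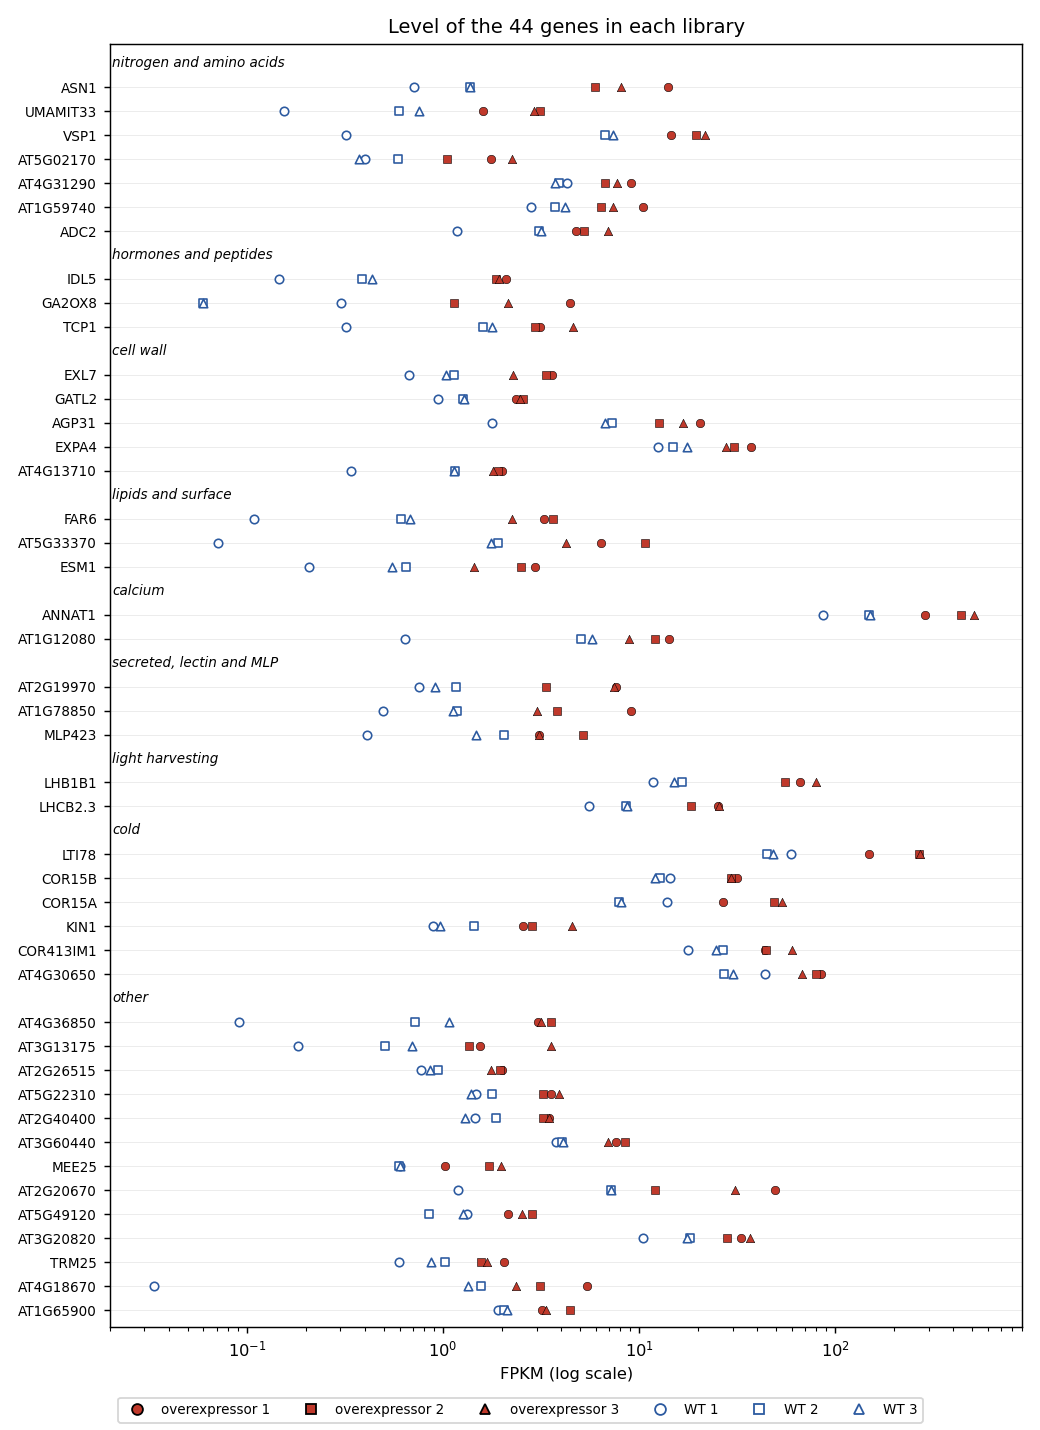
FPKM of the 44 genes in each library on a log axis, grouped by role. Filled red symbols are the 3 overexpressor libraries and open blue symbols the 3 WT libraries, with replicates 1, 2 and 3 as circle, square and triangle. No red symbol overlaps a blue one in any row, as the rule requires, and the open circle of WT replicate 1 is the leftmost of the WT symbols in 33 of the 44 rows.

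Levels spanned a wide range. The lowest overexpressor value lay between 1 and 2 FPKM in 10 genes, between 2 and 5 FPKM in 16, between 5 and 20 FPKM in 9, and at 20 FPKM or more in 9. The median over the 44 genes of the group mean was 4.55 FPKM in the overexpressor and 1.28 FPKM in WT, while over all 16870 genes that reached a mean of 1 FPKM those medians were 12.01 and 12.3 FPKM. All 44 genes passed that filter. The lowest overexpressor value was at least 2 times the highest WT value in 15 genes, at least 3 times in 5 and at least 4 times in 2. The fewest reads behind an overexpressor value were 39, in IDL5 and in AT2G26515, and WT replicate 1 held 3 reads of IDL5.

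**Figure D2:**
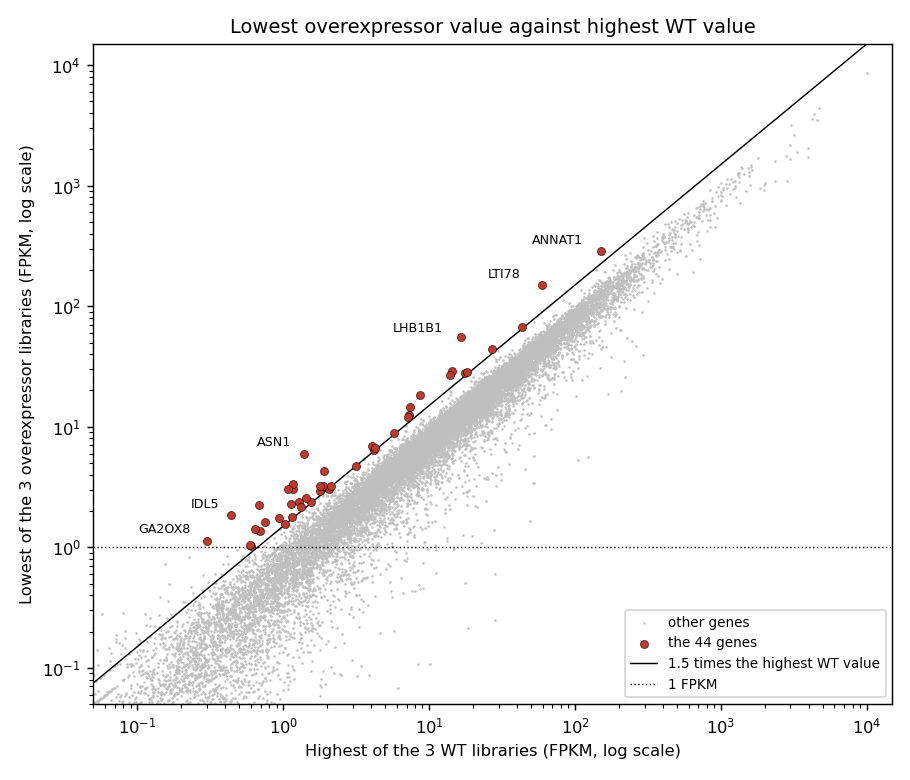
Lowest overexpressor value against highest WT value per gene, in FPKM on log axes, for genes with both at 0.05 FPKM or more. Red points are the 44 genes, which lie above the line of 1.5 times the highest WT value and above the dotted line of 1 FPKM.

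Limma on log2(FPKM + 1) across the 16870 genes called 0 genes higher in the overexpressor (0.0%) at a Benjamini-Hochberg adjusted p under 0.05, and hence 0 of the 44. It called 2 genes lower (0.0119%). At an unadjusted p under 0.05 it had 341 genes higher (2.02%), with all 44 genes among them, from which nothing is read because the rule used the same contrast. Voom on reads recovered from the FPKM values, chosen after seeing the data, also called 0 genes higher. Without WT replicate 1, limma called 16 genes higher (0.0949%), of which 3 were among the 44: LHB1B1, COR15B and AT4G30650. Nothing is read from these 3 either, because the rule used the same contrast. Fold changes of the 44 genes in limma, overexpressor over WT on the log2(FPKM + 1) scale, ran from 0.60 to 2.38 with a median of 1.12, against a median of -0.04 over all genes tested. All 3 overexpressor libraries lay above all 3 WT libraries in 803 of the tested genes, or 4.76%, and below them in 1635, or 9.69%.

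Genes of nitrogen, amino acid and peptide handling were put together as a group of 7 members. The role groups were drawn up by hand with earlier results known, and only for the members. Their sizes therefore have no share of all genes beside them, and nothing is read from them. ASN1 (AT3G47340; chromosome 3, 17437840 to 17441431, minus strand) stood at 14.03, 5.98 and 8.05 FPKM in the overexpressor stems, against 0.710, 1.37 and 1.38 FPKM in the WT stems. Overexpressor replicate 1 was the highest, and the lowest overexpressor stem was 4.34 times the highest WT stem. The group means were 9.36 ± 4.18 FPKM in the overexpressor and 1.15 ± 0.383 FPKM in WT (SD, n = 3 each), and the log2 fold change was 2.21 (SE 0.31). Its relatives did not share the gap: ASN2 stood at 10.9, 2.88 and 5.42 FPKM in overexpressor replicates 1, 2 and 3 and 1.73, 3.32 and 3.42 FPKM in WT replicates 1, 2 and 3, and ASN3 at 7.01, 8.38 and 6.20 FPKM in overexpressor replicates 1, 2 and 3 and 12.2, 9.14 and 8.06 FPKM in WT replicates 1, 2 and 3. ASN2 followed ASN1 in order among the overexpressor stems but its replicate 2 lay inside the WT range, and ASN3 was lower in 2 of the 3 overexpressor stems than in any WT stem.

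Vegetative storage protein 1 (VSP1, AT5G24780; chromosome 5, 8507590 to 8509201, minus strand), a storage protein of the acid phosphatase family that jasmonate induces, stood at 14.5, 19.5 and 21.8 FPKM in the overexpressor stems, against 0.318, 6.67 and 7.38 FPKM in the WT stems. WT replicate 1 was far below the other WT stems. VSP2, its neighbour and closest relative (85.5% identity over 911 bases), was far more abundant and did not meet the rule: 279.7, 136 and 270.4 FPKM in overexpressor replicates 1, 2 and 3 and 90.96, 109 and 104 FPKM in WT replicates 1, 2 and 3. Every overexpressor stem lay above every WT stem in VSP2 too, an order found in 4.76% of all tested genes. In VSP1 the rule itself sets that order. The rest of the jasmonate list (14 genes measured, of which VSP1 alone met the rule) held AOS, OPR3 and MYC2, with MYC2, the central transcription factor of the response, at 21.3, 22.5 and 26.3 FPKM in overexpressor replicates 1, 2 and 3 and 51.97, 24.1 and 23.03 FPKM in WT replicates 1, 2 and 3.

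ADC2 (AT4G34710; chromosome 4, 16560030 to 16563044, minus strand), an arginine decarboxylase that opens polyamine synthesis, was just inside the threshold at 4.76, 5.23 and 6.92 FPKM in the overexpressor stems, against 1.18, 3.09 and 3.17 FPKM in the WT stems. ADC1, the other decarboxylase, had 18.4, 20.2 and 22.1 FPKM in overexpressor replicates 1, 2 and 3 and 16.1, 22.5 and 23.2 FPKM in WT replicates 1, 2 and 3, so the groups overlapped there. UMAMIT33 (AT4G28040; chromosome 4, 13940307 to 13942436, plus strand), of a family of amino acid facilitators, stood at 1.61, 3.13 and 2.92 FPKM in the overexpressor stems, against 0.154, 0.596 and 0.755 FPKM in the WT stems, and it was the 1 gene of 40 measured UMAMIT genes to meet the rule. Among the 29 UMAMIT genes that were tested, all overexpressor stems lay above all WT stems in 2 and below them in 4, where the shares of all tested genes were 4.76% and 9.69%. The 2 include UMAMIT33, where the rule itself sets that order, so nothing is read from their number. Of the exons of UMAMIT33, 9.53% overlap TET7 on the opposite strand.

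The 3 other genes of this group were named after their values were seen. AT5G02170, a transmembrane amino acid transporter, stood at 1.76, 1.05 and 2.26 FPKM in the overexpressor stems, against 0.399, 0.589 and 0.374 FPKM in the WT stems. AT1G59740 (NPF4.3), of the nitrate and peptide transporter family, stood at 10.5, 6.40 and 7.37 FPKM in the overexpressor stems, against 2.79, 3.72 and 4.17 FPKM in the WT stems. AT4G31290 (GGCT2;2), a gamma-glutamyl cyclotransferase of glutathione breakdown, stood at 9.12, 6.69 and 7.74 FPKM in the overexpressor stems, against 4.27, 3.92 and 3.71 FPKM in the WT stems. The groups lie closest in the transporter of the nitrate and peptide family, at 1.54 times, and widest in the amino acid transporter, at 1.78 times. Across the list of nitrate and sugar status genes (16 measured), ASN1 alone met the rule and limma called 0 in either direction. SWEET11, a sucrose transporter of the phloem named after its values were seen, met the rule turned round, at 36.3, 46.99 and 45.6 FPKM in the overexpressor stems, against 85.2, 93.7 and 91.9 FPKM in the WT stems. The list also holds DIN10, a sugar-repressed raffinose synthase gene, at 617, 142 and 327 FPKM in overexpressor replicates 1, 2 and 3 and 35.99, 306 and 313 FPKM in WT replicates 1, 2 and 3. BT2, a nitrate- and sugar-responsive BTB protein gene, had 38.98, 0.493 and 11.8 FPKM in overexpressor replicates 1, 2 and 3 and 0.248, 2.99 and 2.97 FPKM in WT replicates 1, 2 and 3. Like ASN1, these were highest in overexpressor replicate 1 and lowest in replicate 2, but their overexpressor and WT values overlapped.

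Hormone and peptide signalling had 3 members. GA2OX8 (AT4G21200; chromosome 4, 11302682 to 11306770, plus strand), a gibberellin 2-oxidase that removes gibberellin precursors, was near silent in WT. It stood at 4.43, 1.14 and 2.13 FPKM in the overexpressor stems, against 0.302, 0.0595 and 0.0600 FPKM in the WT stems. WT replicate 1 was the highest WT stem here, and the 3 overexpressor stems differed by up to 3.90 times among themselves. None of the other 5 GA2OX genes measured met the rule, and GA2OX2, the most abundant in WT, had 1.62, 7.20 and 0.894 FPKM in overexpressor replicates 1, 2 and 3 and 3.86, 3.91 and 3.81 FPKM in WT replicates 1, 2 and 3. IDL5 (AT1G76952; chromosome 1, 28914446 to 28915102, minus strand) stood at 2.104, 1.86 and 1.93 FPKM in the overexpressor stems, against 0.146, 0.384 and 0.436 FPKM in the WT stems, with overexpressor stems close together. The group means were 1.96 ± 0.127 FPKM in the overexpressor and 0.322 ± 0.155 FPKM in WT (SD, n = 3 each), and the log2 fold change was 1.17 (SE 0.14). HAE and HSL2, the receptor kinases of the IDA peptide, overlapped between the groups: HAE had 19.9, 23.97 and 20.4 FPKM in overexpressor replicates 1, 2 and 3 and 20.7, 21.6 and 21.7 FPKM in WT replicates 1, 2 and 3. TCP1 (AT1G67260; chromosome 1, 25167418 to 25169707, minus strand, named after its values were seen), a TCP transcription factor linked to brassinosteroid synthesis, stood at 3.14, 2.95 and 4.60 FPKM in the overexpressor stems, against 0.319, 1.60 and 1.79 FPKM in the WT stems. It was the 1 member whose annotation names a transcription factor, or 2.27%, where such genes were 5.53% of the table.

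Wall genes numbered 5, all lowest in WT replicate 1 among the WT stems. EXPA4 (AT2G39700; chromosome 2, 16543832 to 16545746, minus strand), an expansin that loosens walls, was the most abundant at 37.3, 30.5 and 27.7 FPKM in the overexpressor stems, against 12.5, 14.9 and 17.56 FPKM in the WT stems. Of 20 alpha-expansins measured it alone met the rule, and EXPA15 was the other whose overexpressor stems all lay above WT among the 13 that were tested, at 24.1, 26.6 and 26.7 FPKM in overexpressor replicates 1, 2 and 3 and 14.9, 19.3 and 18.7 FPKM in WT replicates 1, 2 and 3. EXPA17 passed the ratio but not the minimum, at 0.261, 0.280 and 1.01 FPKM in overexpressor replicates 1, 2 and 3 and 0.0204, 0.101 and 0.122 FPKM in WT replicates 1, 2 and 3. Across the list of expansins, xyloglucan-modifying XTH enzymes and primary wall cellulose synthases (16 genes), WT replicate 1 was the lowest WT stem in all 16. The list's median log2 fold change was 0.82 with all libraries and 0.03 without WT replicate 1.

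The other wall genes were lower in level. AGP31 (AT1G28290; chromosome 1, 9889101 to 9891015, minus strand), an arabinogalactan protein, stood at 20.5, 12.6 and 16.8 FPKM in the overexpressor stems, against 1.77, 7.23 and 6.72 FPKM in the WT stems. EXL7 (AT2G35150; chromosome 2, 14817047 to 14818211, minus strand), of the EXORDIUM-like growth proteins, stood at 3.59, 3.35 and 2.28 FPKM in the overexpressor stems, against 0.674, 1.14 and 1.03 FPKM in the WT stems, the 1 gene of 7 EXORDIUM-like genes to meet the rule. GATL2, a galacturonosyltransferase-like protein, stood at 2.36, 2.56 and 2.48 FPKM in the overexpressor stems, against 0.945, 1.27 and 1.28 FPKM in the WT stems. It was the 1 gene of 10 in its family to meet the rule, and the overexpressor stems differed among themselves by 1.09 times. AT4G13710, a pectin lyase-like protein, stood at 1.99, 1.90 and 1.79 FPKM in the overexpressor stems, against 0.340, 1.15 and 1.13 FPKM in the WT stems. AGP31, GATL2 and AT4G13710 were named after their values were seen.

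Lipid and surface genes numbered 3, and each was lowest in overexpressor replicate 3 among the overexpressor stems. FAR6 (AT3G56700; chromosome 3, 20999409 to 21002155, minus strand), a fatty acyl reductase that makes fatty alcohols, stood at 3.27, 3.64 and 2.25 FPKM in the overexpressor stems, against 0.109, 0.610 and 0.680 FPKM in the WT stems. None of the other 6 fatty acid reductase genes measured met the rule. Of these CER4, the reductase that makes the primary alcohols of stem wax, was the most abundant at 28.5, 26.6 and 12.9 FPKM in overexpressor replicates 1, 2 and 3 and 1.09, 25.3 and 21.05 FPKM in WT replicates 1, 2 and 3. Its WT replicate 1 lay far below the other 5 stems, and overexpressor replicate 3 lay below WT replicates 2 and 3. AT5G33370 (chromosome 5, 12602468 to 12604832, minus strand), a GDSL-type lipase or acylhydrolase, stood at 6.38, 10.6 and 4.26 FPKM in the overexpressor stems, against 0.0715, 1.92 and 1.75 FPKM in the WT stems. The WT 1 value was 0.039 times the mean of the other WT stems. ESM1 (AT3G14210; chromosome 3, 4729399 to 4731847, plus strand), a GDSL-type protein that steers glucosinolate breakdown products, stood at 2.95, 2.49 and 1.43 FPKM in the overexpressor stems, against 0.207, 0.645 and 0.548 FPKM in the WT stems. None of the 3 promoter windows held any of the 9 motifs.

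ANNAT1 (AT1G35720; chromosome 1, 13225168 to 13227239, plus strand), an annexin that binds membranes in the presence of calcium, was the most abundant of the 44 genes. It stood at 288, 436 and 510.4 FPKM in the overexpressor stems, against 86.4, 149 and 151 FPKM in the WT stems. Group means were 411 ± 113 FPKM in the overexpressor and 129 ± 36.7 FPKM in WT (SD, n = 3 each), and the log2 fold change was 1.67 (SE 0.30). Overexpressor replicate 1 was the lowest of its group and WT replicate 1 the lowest of WT. The other annexins did not part the groups: ANNAT2 had 19.8, 14.2 and 15.8 FPKM in overexpressor replicates 1, 2 and 3 and 4.67, 15.1 and 15.9 FPKM in WT replicates 1, 2 and 3, and ANNAT4 3.76, 1.71 and 3.25 FPKM in overexpressor replicates 1, 2 and 3 and 0.842, 2.04 and 1.81 FPKM in WT replicates 1, 2 and 3. AT1G12080 (named after its values were seen), a vacuolar calcium-binding-like protein, stood at 14.2, 12.04 and 8.91 FPKM in the overexpressor stems, against 0.640, 5.07 and 5.78 FPKM in the WT stems.

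Secreted and related proteins included AT2G19970 (chromosome 2, 8623699 to 8624624, minus strand), a CAP protein of the family of pathogenesis-related protein 1, at 7.62, 3.36 and 7.42 FPKM in the overexpressor stems, against 0.751, 1.17 and 0.915 FPKM in the WT stems. AT1G78850 (chromosome 1, 29641860 to 29643535, minus strand), a mannose-binding lectin, stood at 9.12, 3.83 and 3.03 FPKM in the overexpressor stems, against 0.495, 1.17 and 1.13 FPKM in the WT stems. Overexpressor replicate 1 was more than double the other overexpressor stems. Its neighbouring copy AT1G78860 (91.3% identity over 1395 bases) held at most 3 reads in any library. MLP423 (AT1G24020; chromosome 1, 8500119 to 8502065, minus strand), of the major latex protein-like family, was the closest to the threshold at 3.07, 5.18 and 3.10 FPKM in the overexpressor stems, against 0.412, 2.05 and 1.48 FPKM in the WT stems.

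Antenna genes of photosystem II were a small part of the 44, with 2 of 20 light-harvesting genes measured. LHB1B1 (AT2G34430; chromosome 2, 14524607 to 14525918, plus strand) stood at 65.8, 55.2 and 79.5 FPKM in the overexpressor stems, against 11.8, 16.5 and 15.1 FPKM in the WT stems. LHCB2.3 (AT3G27690; chromosome 3, 10255906 to 10257489, plus strand) stood at 25.1, 18.4 and 25.4 FPKM in the overexpressor stems, against 5.57, 8.60 and 8.66 FPKM in the WT stems. These were the least abundant LHCB1 and LHCB2 genes in overexpressor stems, and WT replicate 1 was the lowest WT stem in both. In the abundant relative CAB1 the values were 3227, 3829 and 3202 FPKM in overexpressor replicates 1, 2 and 3 and 3001, 1556 and 1586 FPKM in WT replicates 1, 2 and 3, and in LHB1B2 they were 1675, 2299 and 2147 FPKM in overexpressor replicates 1, 2 and 3 and 2983, 463 and 483 FPKM in WT replicates 1, 2 and 3, where WT replicate 1 lay above every other library. Of LHCB2.3 exons, 40.6% overlap AT3G27700 on the opposite strand. That gene had 7.33, 9.08 and 8.93 FPKM in overexpressor replicates 1, 2 and 3 and 10.8, 8.85 and 8.72 FPKM in WT replicates 1, 2 and 3. Whether reads were assigned by strand is not stated, so those in shared exons may belong to either gene, here and in the overlaps given for other members.

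Cold-responsive genes made up 6 of the 44, of which 5 stand in the list of 18 cold-regulated and dehydrin genes that matched by name. LTI78, also called RD29A (AT5G52310; chromosome 5, 21240717 to 21243644, plus strand), stood at 149, 267 and 271 FPKM in the overexpressor stems, against 59.3, 45.1 and 48.03 FPKM in the WT stems, a log2 fold change of 2.11 (SE 0.26). Overexpressor replicates 2 and 3 were alike and replicate 1 lower. COR15A and COR15B, proteins of the chloroplast stroma that protect membranes in freezing, are the 1 pair of neighbours among the 44, with 7 bases between them on chromosome 2. COR15A (AT2G42540; chromosome 2, 17710441 to 17712330, minus strand) stood at 26.7, 48.5 and 53.3 FPKM in the overexpressor stems, against 13.9, 7.85 and 8.08 FPKM in the WT stems. COR15B (AT2G42530; chromosome 2, 17708593 to 17710433, minus strand) stood at 31.5, 29.2 and 29.3 FPKM in the overexpressor stems, against 14.3, 12.8 and 11.99 FPKM in the WT stems, and its 3 overexpressor stems were the closest together of any of the 44 genes, at 1.08 times. The pair's spread thus differed: overexpressor replicate 1 had the lowest COR15A and the highest COR15B. Exons of COR15B overlap AT2G42520 on the opposite strand over 29.5% of their length.

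COR413IM1 (AT1G29395; chromosome 1, 10288129 to 10289666, minus strand), of the chloroplast envelope, stood at 44.03, 44.5 and 60.4 FPKM in the overexpressor stems, against 17.7, 26.8 and 24.5 FPKM in the WT stems. AT4G30650 (chromosome 4, 14954204 to 14955114, plus strand), of the low temperature and salt responsive family, stood at 84.5, 79.8 and 67.7 FPKM in the overexpressor stems, against 43.6, 27.1 and 30.2 FPKM in the WT stems. KIN1 (AT5G15960; chromosome 5, 5209717 to 5210826, plus strand) stood at 2.55, 2.85 and 4.52 FPKM in the overexpressor stems, against 0.893, 1.44 and 0.968 FPKM in the WT stems. KIN2, its neighbour (92.1% identity over 505 bases), was far more abundant and missed the rule through WT replicate 1: 336, 524 and 573 FPKM in overexpressor replicates 1, 2 and 3 and 313, 129 and 160.3 FPKM in WT replicates 1, 2 and 3. WT replicate 1 was the highest WT stem in 4 of the 6 cold genes, and overexpressor replicate 1 the lowest of its group in 4 of 6. In 10 of the 14 tested genes of the cold list all overexpressor stems lay above WT, where the share of all genes was 4.76%, and the list's median log2 fold change was 1.05. Limma called 0 of them. The 10 include the 5 list genes that are among the 44, where the rule itself sets that order. The median includes those genes too, so no shift of the list is read from either value. The CBF factors that bind the CRT/DRE element were low apart from CBF3, which had 2.94, 7.14 and 7.01 FPKM in overexpressor replicates 1, 2 and 3 and 6.77, 0.0159 and 0.160 FPKM in WT replicates 1, 2 and 3, with WT replicate 1 inside the overexpressor range.

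The remaining 13 genes have no shared role. AT4G36850 (chromosome 4, 17353291 to 17356037, minus strand), a PQ-loop membrane protein, stood at 3.04, 3.55 and 3.17 FPKM in the overexpressor stems, against 0.0908, 0.716 and 1.07 FPKM in the WT stems. AT2G20670 (chromosome 2, 8911860 to 8913747, minus strand), a protein with a DUF506 domain, had the largest log2 fold change of the 44, 2.38 (SE 0.70), and also the widest spread. It stood at 49.03, 12.1 and 30.7 FPKM in the overexpressor stems, against 1.195, 7.16 and 7.19 FPKM in the WT stems. The highest overexpressor stem was 4.06 times the lowest, and WT replicate 1 was 0.167 times the mean of the other WT stems. AT3G20820 (chromosome 3, 7280792 to 7282377, plus strand), a leucine-rich repeat protein, stood at 33.2, 28.2 and 36.7 FPKM in the overexpressor stems, against 10.5, 18.1 and 17.62 FPKM in the WT stems.

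The 10 others were named after their values were seen. AT4G18670, also a leucine-rich repeat protein, stood at 5.44, 3.13 and 2.36 FPKM in the overexpressor stems, against 0.0336, 1.56 and 1.34 FPKM in the WT stems, with WT replicate 1 near 0. AT3G13175, an uncharacterized protein with 6 of the 9 motifs in its window, stood at 1.55, 1.36 and 3.57 FPKM in the overexpressor stems, against 0.182, 0.508 and 0.693 FPKM in the WT stems. MEE25, an NAD(P)-binding protein whose nearest relative was MUR4, an epimerase of nucleotide sugars, stood at 1.02, 1.71 and 1.97 FPKM in the overexpressor stems, against 0.606, 0.597 and 0.602 FPKM in the WT stems. Exons of MEE25 overlap AT2G08690 on the opposite strand over 27.3% of their length. AT2G40400, annotated as a putative DUF399 family protein, stood at 3.48, 3.21 and 3.46 FPKM in the overexpressor stems, against 1.46, 1.86 and 1.29 FPKM in the WT stems. AT3G56140, its closest relative (84.6% identity), had 23.3, 26.4 and 24.97 FPKM in overexpressor replicates 1, 2 and 3 and 30.1, 24.4 and 22.8 FPKM in WT replicates 1, 2 and 3. AT3G60440, of the phosphoglycerate mutase family, stood at 7.60, 8.46 and 6.92 FPKM in the overexpressor stems, against 3.78, 4.05 and 4.07 FPKM in the WT stems. The 5 left were AT2G26515, AT5G22310, AT5G49120, TRM25 and AT1G65900, with overexpressor means of 1.76 to 3.67 FPKM and ratios of 1.86, 1.82, 1.61, 1.53 and 1.51.

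The overexpressor stems differed among themselves in the 44 genes by a median of 1.57 times from lowest to highest, against 1.23 times over all tested genes. The WT stems were likewise wider apart in the 44 genes, by 1.72 times against 1.34 times. Neither comparison was matched for level. The median overexpressor mean was 4.55 FPKM in the 44 genes and 12.01 FPKM over all tested genes. The wider spread is therefore not read as a trait of the 44 genes. The overexpressor spread exceeded 2 times in 10 genes. The order of the 3 stems also varied. In 11 genes, ASN1, GA2OX8, AT2G20670 and IDL5 among them, replicate 1 was the highest and replicate 2 the lowest (25%, against 18.5% of tested genes). In 8 genes, among them LTI78, COR15A, KIN1, COR413IM1, ANNAT1, VSP1 and ADC2, replicate 3 was the highest and replicate 1 the lowest (18.18%, against 15.2%). In 9 genes, EXPA4 and ESM1 among them, replicate 1 was the highest and replicate 3 the lowest (20.5%, against 11.1%). The commonest order over all tested genes, replicate 2 the highest and replicate 1 the lowest, was found in 6 of the 44 (13.6%, against 30.4%).

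**Figure D3:**
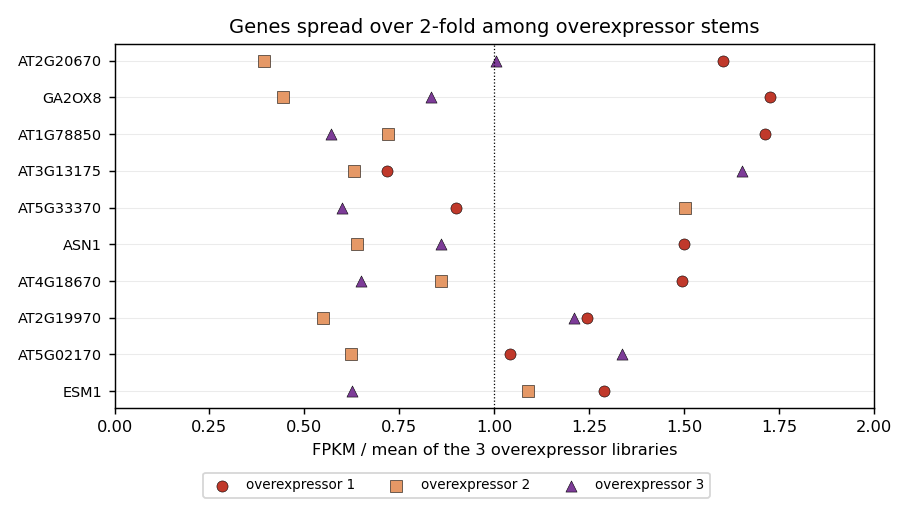
The 10 genes whose highest overexpressor stem was over 2 times the lowest, each value divided by the mean of the 3 overexpressor libraries. Circles, squares and triangles are overexpressor replicates 1, 2 and 3. Replicate 1 is the rightmost in 7 of the 10 rows, with AT2G20670 at the top as the widest.

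WT replicate 1 was the lowest WT stem in 33 of the 44 genes, or 75%, against 42.2% of all tested genes, and the highest in 8, or 18.18%, against 50.6%. The rule itself bears on these shares, since it leaves out genes that are high in WT replicate 1 alone. Against the higher of WT replicates 2 and 3, the median ratio of the 44 genes was 1.83, where it was 1.80 against all 3 WT stems, and the ratio changed only in the 8 genes whose highest WT stem was replicate 1. GA2OX8 changed most, with a ratio of 18.9 in place of 3.76. Leaving WT replicate 1 out of the rule gave 136 genes, the 44 and 92 more, and in 62 of the 92 WT replicate 1 lay above every overexpressor stem. Among the 92 were 12 light-harvesting, 7 clock and 4 cold genes of the lists.

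**Figure D4:**
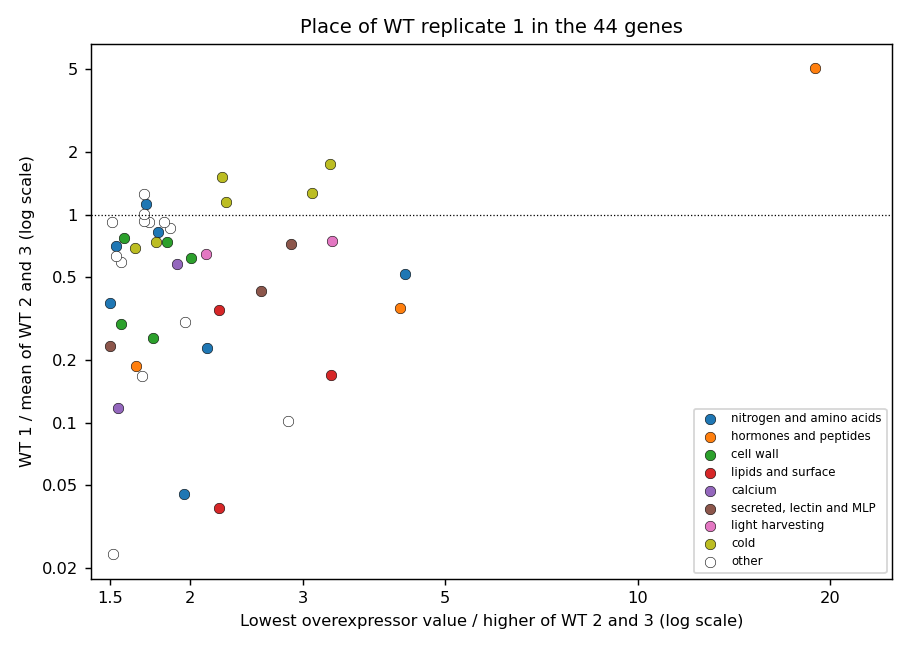
WT replicate 1 divided by the mean of WT replicates 2 and 3 (vertical) against the lowest overexpressor value divided by the higher of WT replicates 2 and 3 (horizontal), both on log axes, 1 point per gene coloured by role. Above the dotted line of 1 lie 8 points, among them 4 of the 6 cold genes and GA2OX8, the point at 18.9 on the horizontal axis.

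By annotation all 44 genes code for proteins, as did 95.3% of the table. Transporters, wall proteins and lipid proteins each matched 3 members by words of the annotation (6.82%, against 2.81%, 2.07% and 1.34% of the table). These words differ from the role groups above. By them AT2G20670 counts as a transporter and AT1G59740 does not, and EXL7 and GATL2 are not counted as wall proteins. No kinase or receptor and no protein turnover gene was among the 44 genes by such words, where these were 5.79% and 5.68% of the table. Of the other lists (photosystem cores, clock, salicylic acid, flavonoids, heat shock, metals, phosphate, glucosinolates, auxin, ethylene, gibberellin, and markers of fibres and vessels, flowers, seeds, root hairs and epidermis) no gene met the rule. The gibberellin list does not hold GA2OX8, nor the glucosinolate list ESM1. The 44 genes were spread over the chromosomes with 10, 10, 8, 8 and 8 on chromosomes 1 to 5. Their median exon length was 1567 bases against 1784 for tested genes. None had a copy of at least 95% identity over 50% of its exons.

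Near the threshold the choice was narrow. ADC2 and MLP423, the last inside, had ratios of 1.502 each. Just outside the ratio were AT4G01870 at 1.4995, with 9.96, 6.74 and 7.64 FPKM in overexpressor replicates 1, 2 and 3 and 2.92, 4.06 and 4.50 FPKM in WT replicates 1, 2 and 3, and AT5G10540 at 1.49, with 5.73, 5.42 and 5.38 FPKM in overexpressor replicates 1, 2 and 3 and 3.10, 3.51 and 3.60 FPKM in WT replicates 1, 2 and 3. Just under the minimum of 1 FPKM were AT3G48490, with a lowest overexpressor value of 0.991 FPKM, and the cyclin gene cycp3;1, with 0.950 FPKM.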

How the data were processed

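RNA was measured by sequencing in 6 libraries, 3 from overexpressor and 3 from WT stems, 1 plant each per the labels. The authors deposited 1 table of FPKM values; HISAT2 is named in the submitters' processing notes, and not given in the sources used here are its version, the build, the annotation, the counter and any strand setting. All 24434 identifiers matched RefSeq loci of TAIR10.1. FPKM multiplied by the exon length of that annotation gave whole reads for 100% of values (tolerance 0.1 reads), so its use by the authors is inferred, and depth and coordinates rest on it.

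The rule was applied to the FPKM values as deposited. Tests across genes were two-sided and used limma 3.58.1 (R 4.3.3) with an intensity trend, on log2(FPKM + 1), for the 16870 genes whose mean reached 1 FPKM, with Benjamini-Hochberg adjustment at 0.05. The labels do not say that replicates were prepared separately beyond being separate plants, so p-values measure plants and preparation together. The code was tested on simulated data. The genes described, the 22 gene lists, their 288 entries (6 dropped because the name did not match) and the role groups were chosen with earlier results of these data known. Genes were named by a rule: the 15 highest ratios, the 10 highest overexpressor means, every member of a list, and 2 genes on each side of the ratio threshold, 26 of the 44 in all. Families were chosen after seeing the data. Copies were sought with BLAST 2.17.0. Read counts cover counting error only. Alternatives covered the minimum, the ratio, an added constant, scaling, the filter, the pseudocount, single libraries, the replicate block, the strand of motifs and voom.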

Additional observations from a re-analysis of the deposited data

How the results depend on the processing

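The number of genes meeting the rule was 18 with a minimum of 5 FPKM, 152 with none above 0, 101 at a ratio midway between 1 and 1.5, and 15 at a ratio of 2. It was 58 at a minimum of 0.5 FPKM, 33 with 0.5 FPKM added to both sides, 49 after median-ratio scaling and 39 after equal sums. Leaving out 1 library gave 56 to 136 genes: 74, 115 and 102 without overexpressor replicates 1, 2 and 3, and 136, 56 and 69 without WT replicates 1, 2 and 3. Each of these 6 sets held all 44 genes, as dropping a library from such a rule must. Limma called 0 to 16 genes higher, and 0 to 3 of the 44, over the same 6 omissions, and the calls came without WT replicate 1 alone (adjusted p = 0.0144 for LHB1B1, 0.00912 for COR15B and 0.0185 for AT4G30650). Those fits have 2 WT stems. Nothing is read from the calls among the 44, because the rule used the same contrast. With no filter limma called 1 gene higher, AT4G25433, which is not among the 44. Under the other settings, voom on recovered reads included (chosen after seeing the data), it called 0 higher. The direction of the members' fold changes under alternatives is fixed by how the genes were chosen, and nothing is read from it. Searched on the gene's own strand, the W-box core stood in 22.7% of the windows, against 29.25% of all windows.

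With the replicate number as a block, limma called 0 genes higher and 0 of the 44. Deviations from the group mean correlated at -0.60, -0.59 and 0.03 between same-numbered stems. Between differently numbered stems they correlated at -0.61 to 0.62. Deviations within a group depend on each other, so these values cannot show whether the numbers pair the samples. Depth bears most on genes near 1 FPKM, where a value could rest on as few as 39 reads in an overexpressor library.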

Other observations

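AT4G25433, a gene for a protein with a LysM domain that was named after its values were seen, lay under the minimum of 1 FPKM but was close to unread in WT. It held 26, 23 and 30 reads in overexpressor replicates 1, 2 and 3, or 0.761, 0.671 and 0.886 FPKM, against 1, 1 and 0 reads in WT replicates 1, 2 and 3. It was the 1 gene that limma called higher when no filter was applied (adjusted p = 0.0479, log2 fold change 0.80 on the log2(FPKM + 1) scale, all 3 overexpressor stems above all 3 WT stems).

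RD29B, the neighbour of LTI78 and a gene that abscisic acid induces, also passed the ratio but not the minimum. It had 0.172, 0.202 and 0.705 FPKM in the overexpressor and 0.0207, 0.0712 and 0.0308 FPKM in WT.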
